A study of Mus musculus with 24 samples.

Results

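Mouse embryonic fibroblasts that received the AGHMT cocktail were compared with fibroblasts that received GMT, both 2 days after transduction, across every gene of the deposited count table. The labels give the cocktails by letters only; by the usual reading GMT is Gata4, Mef2c and Tbx5, GHMT adds Hand2 to these, and AGHMT adds Hand2 and Akt1. The members are the 3 AGHMT and 3 GMT libraries of day 2, so 6 of the 24 libraries of the series, and 3 GHMT libraries of the same day served only to divide the change into a Hand2 step (GHMT against GMT) and an Akt1 step (AGHMT against GHMT). All fibroblasts came from C57BL/6 embryos of embryonic day 13.5 to 14.5, and all cocktail groups were made by retroviral transduction, moved to the same serum-containing induction medium with insulin and B-27 supplement, and lysed whole for total RNA. The 3 Mock libraries of day 2, whose label does not say whether an empty virus was used, are given for level only. Whether the replicates are separate cultures is not in the labels, and the p-values cover only the library-to-library spread, be it biological or technical. The RNA is from the whole culture, in which fewer cells of a type and less RNA per cell cannot be told apart.

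Gata4, Mef2c and Tbx5 are transcription factors of heart development, and their forced expression moves fibroblasts toward a cardiomyocyte-like state. Hand2 is a basic helix-loop-helix factor of the heart and limb that binds E-box sequences. Akt1 is a serine/threonine kinase downstream of phosphoinositide 3-kinase; it promotes growth and glucose use through mTORC1 and keeps FoxO transcription factors out of the nucleus.

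The 12 libraries of day 2 held between 29345957 and 36633297 counts on genes, and 17576 of the 47967 genes of the table passed the filter on low counts and were tested. The common spread between replicates was 5.55% (what edgeR names the biological coefficient of variation, over all groups). The name does not show that the spread is between cultures. Chi-square per degree of freedom, which sets spread against counting error, was 1.489 to 1.997 between GMT libraries. It was 2.046 between AGHMT replicates 1 and 2, and 41.673 and 38.849 for the pairs with AGHMT replicate 3. One library in each of 2 groups stood apart from its group. AGHMT replicate 3 and GHMT replicate 3 were richer in short transcripts than the other libraries of their groups. In AGHMT replicate 3 the median deviation from the group mean was 0.24 on the log2 scale in the shortest and -0.27 in the longest of 10 classes of transcript length. The same values were 0.08 and -0.10 in GHMT replicate 3, and -0.01 and 0.00 in GMT replicate 3. Without both libraries, 11062 genes differed between AGHMT and GMT, against 11081 with them, and 10067 of the 11081 were called again with the same sign. Fibroblast genes were present in every group, with Col1a1 at a mean of 10172 CPM (a gene's count as a share of its library's total, scaled by TMM factors) in AGHMT, 6294 in GMT and 11896 in Mock. Col1a1 does not stand for its list. The 45 tested fibroblast and matrix genes summed to 46050.5 to 52819.9 CPM in AGHMT and 53683.9 to 54642.3 in GMT. Their sum was 59978.5 to 64546.1 CPM in GHMT and 102017 to 109451.9 in Mock.

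**Figure D1:**
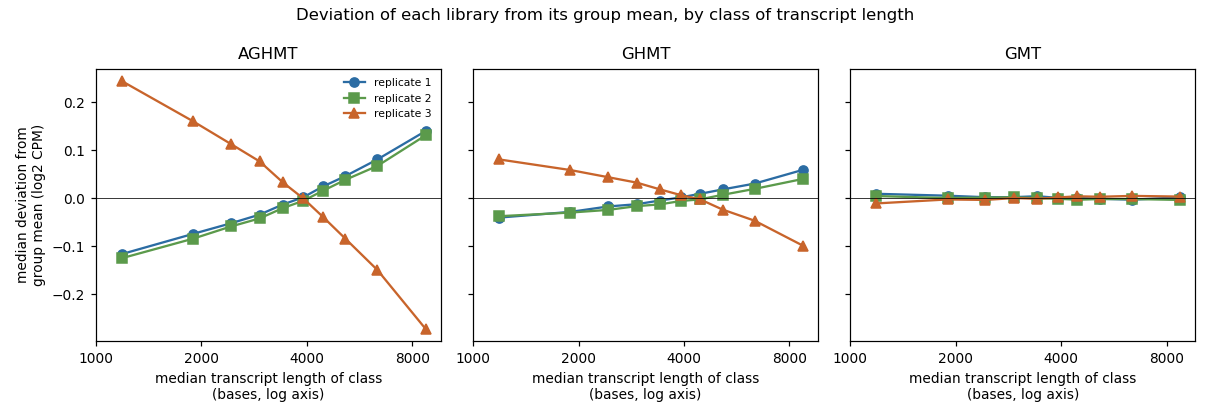
Median deviation of each AGHMT, GHMT and GMT library of day 2 from its group mean (log2, vertical axis) against transcript length in bases by length class (log axis), 1 line per library. AGHMT replicate 3 runs from 0.24 at the shortest class to -0.27 at the longest, GHMT replicate 3 from 0.08 to -0.10, and the GMT lines stay near 0.

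With both additions together, 11081 genes, 63% of those tested, differed between AGHMT and GMT (edgeR quasi-likelihood test, Benjamini-Hochberg adjusted p under 0.05). Of these, 5550 were higher in AGHMT (31.6% of genes tested) and 5531 were lower (31.5%). A change of at least 1.5-fold was seen for 5585 genes (31.8%), 2668 higher (15.2%) and 2917 lower (16.6%), and of at least 2-fold for 3197 (18.2%), 1561 higher (8.88%) and 1636 lower (9.31%). The libraries of AGHMT and GMT did not overlap in CPM for 11270 genes, 64.1% of those tested. The Hand2 step called 7872 genes (44.8%; 4055 higher and 3817 lower) and the Akt1 step called 9259 (52.7%; 4521 higher and 4738 lower). The net change shares its GMT libraries with the Hand2 step and its AGHMT libraries with the Akt1 step, and the steps share the GHMT libraries with opposite signs, so that error in GHMT alone pushes the steps apart.

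The Akt1 step alone accounted for 3514 of the 11081 genes (31.7%; 1929 higher and 1585 lower), meaning that only this step was called, with the sign of the net change. The Hand2 step alone accounted for 2284 genes (20.6%; 1035 higher and 1249 lower). Both steps were called in the same direction for 2677 genes (24.2%; 1326 higher and 1351 lower), and these had the largest median size of net change among the classes, 0.95 on the log2 scale. The steps were opposed for 1427 genes (12.9%), with a net change left over, and 1179 genes (10.6%) were called in the net comparison with neither step called. A gene called in 1 step only is not thereby shown to differ between the steps. The difference of the steps was itself tested, and 7195 of all genes tested (40.9%) were called. Among the 11081 genes, the Akt1 step went further in the direction of the net change for 3181 and the Hand2 step for 2324, whereas 5576 were not called for that difference. A further 1069 genes (6.08% of genes tested) were called in both steps with opposite signs and had no net call.

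**Figure D2:**
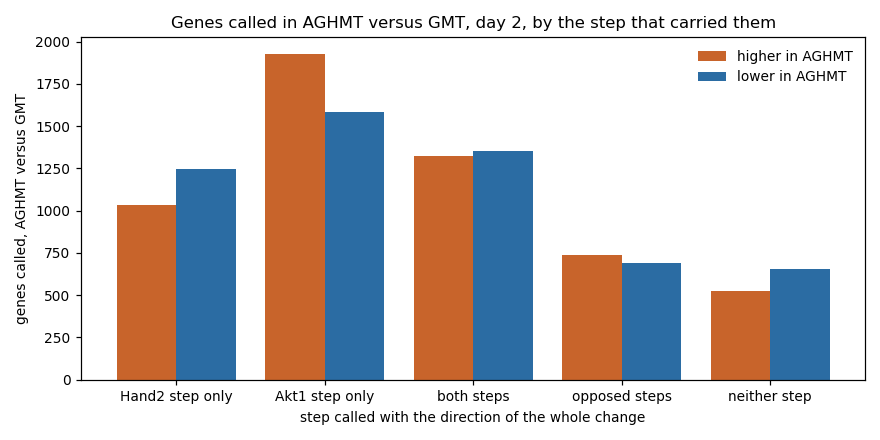
Number of genes called in AGHMT against GMT at day 2 (vertical axis) by which step was called, with bars side by side for genes higher and genes lower in AGHMT. The Akt1 step alone holds 1929 higher and 1585 lower genes, the Hand2 step alone 1035 and 1249, and both steps together 1326 and 1351.

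Of the cocktail genes, Hand2 (chr8:57320983-57324633, GRCm38) had 984, 962 and 1099 CPM in the 3 AGHMT libraries, 1142, 1169 and 1188 in GHMT, and 4.03, 3.98 and 3.83 in GMT. It was high in every library whose cocktail has the H and near its Mock level (5.80 ± 0.179 CPM, mean ± SD, n = 3) in GMT. Akt1 (chr12:112653821-112674884) had 471, 450 and 485 CPM in AGHMT, 385, 390 and 404 in GHMT, and 371, 364 and 363 in GMT. The AGHMT libraries were all above the others, but the size was small: the net log2 fold change was 0.36 ± 0.04 (SE, edgeR quasi-likelihood test, adjusted p = 4.82e-08) and that of the Akt1 step 0.25 ± 0.04 (adjusted p = 1.26e-05). These counts do not separate viral from endogenous transcripts. Gata4 was at 1133 ± 38.7 CPM in AGHMT and 1142 ± 24.9 in GMT (net log2 fold change -0.01, adjusted p = 0.832), but at 1479 ± 45.2 in GHMT, so its steps were 0.37 and -0.39. Mef2c was at 2819 ± 163 CPM in AGHMT and 2800 ± 41.7 in GMT (0.01, adjusted p = 0.866), and at 3054 ± 56.1 in GHMT. Its steps of 0.13 and -0.12 were both called, but neither was with only the 12 day 2 libraries. Tbx5 was lower in AGHMT, at 2637 ± 222 against 2983 ± 40.3 CPM, and fell by 0.18 on the log2 scale (adjusted p = 0.00297). In GHMT it was at 3409 ± 94.8 CPM, with steps of 0.19 and -0.37. Gata4, Mef2c and Tbx5 thus each had their highest mean in GHMT. Whether this bears on genes with opposed steps was not tested.

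The genes that rose most from GMT to AGHMT were close to silent in GMT and, apart from Hand2 itself, rose in both steps. Sfrp5 (chr19:42197971-42202252), a secreted antagonist of Wnt ligands, had 0.0517, 0.113 and 0.0891 CPM in GMT, 14.9, 13.7 and 14.3 in GHMT, and 76.2, 75.0 and 93.8 in AGHMT. The 3 groups did not overlap and were stepped in that order. On the 9 counts of GMT the ratio of AGHMT to GMT was 984, with a 95% interval from 518 to 2150 that covers counting error only. Agt (chr8:124556534-124569706), angiotensinogen, the precursor of the angiotensin peptides, had 0.904, 1.47 and 1.34 CPM in GMT, 75.8, 70.1 and 78.8 in GHMT, and 336, 315 and 384 in AGHMT. Its net log2 fold change was 8.13 ± 0.12 (adjusted p = 8e-25), of which the Hand2 step made 5.93 and the Akt1 step 2.20, and the steps differed by 3.73 ± 0.18 (adjusted p = 8.56e-15). Camk1g (chr1:193346346-193370298), a calcium/calmodulin-dependent protein kinase, had 0.388, 0.197 and 0.267 CPM in GMT, 9.05, 6.46 and 8.13 in GHMT, and 92.8, 87.6 and 86.1 in AGHMT. Its net log2 fold change of 8.25 ± 0.15 (adjusted p = 9.43e-24) was divided into 4.76 and 3.49. Hand2 was of the same rank, and the others were Kcng1, a modifier subunit of voltage-gated potassium channels (8.14 ± 0.20), Colgalt2, a collagen galactosyltransferase (7.02 ± 0.16), Ccnb3, a cyclin of meiosis, and Ms4a18. Ccnb3 had 1 count and Ms4a18 had 2 counts in the GMT libraries together, and their ratios were 608 (counting interval 109 to 24000) and 375 (104 to 3110).

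At the other end stood genes whose mean was above Mock in GMT and low in AGHMT. Mlph (chr1:90915085-90951142), the adaptor that links melanosomes to a myosin motor, had 44.6, 42.6 and 42.3 CPM in GMT, 6.51, 5.04 and 6.23 in GHMT, and 1.01, 1.05 and 1.19 in AGHMT. The groups did not overlap, AGHMT was near the Mock level of 0.910 ± 0.0907 CPM, and the net change of -5.31 ± 0.11 (adjusted p = 6.47e-23) was made of steps of -2.86 and -2.44 that did not differ past the threshold (adjusted p = 0.105). Nefl (chr14:68083863-68089095), the light neurofilament subunit, had 10.1, 10.5 and 9.56 CPM in GMT, 0.297, 0.133 and 0.233 in GHMT, and 0.116, 0.0657 and 0.166 in AGHMT. All of its called change lay in the Hand2 step (-5.48 ± 0.17, against a net of -6.36 ± 0.19), and the steps differed (adjusted p = 2.85e-06). Nefm, the medium neurofilament subunit, whose annotated span overlaps that of Nefl, went from 28.0 ± 2.30 CPM in GMT to 1.61 ± 0.252 in GHMT and 1.11 ± 0.0701 in AGHMT. Ccdc68 was at 32.1 ± 2.16, 4.52 ± 0.146 and 1.13 ± 0.0545 CPM in the same order, and fell in both steps. Bex1 and Bex4, X-linked genes of the Bex family, fell by 4.64 and 4.97 on the log2 scale, Lypd1, of the Ly6 family, by 5.17, and Asic4, of the acid-sensing channel family, by 4.55. For Bex1, Lypd1 and Asic4, as for Nefm, the Hand2 step was the larger (adjusted p for the difference of the steps from 6.1e-11 to 2.61e-08).

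**Figure D3:**
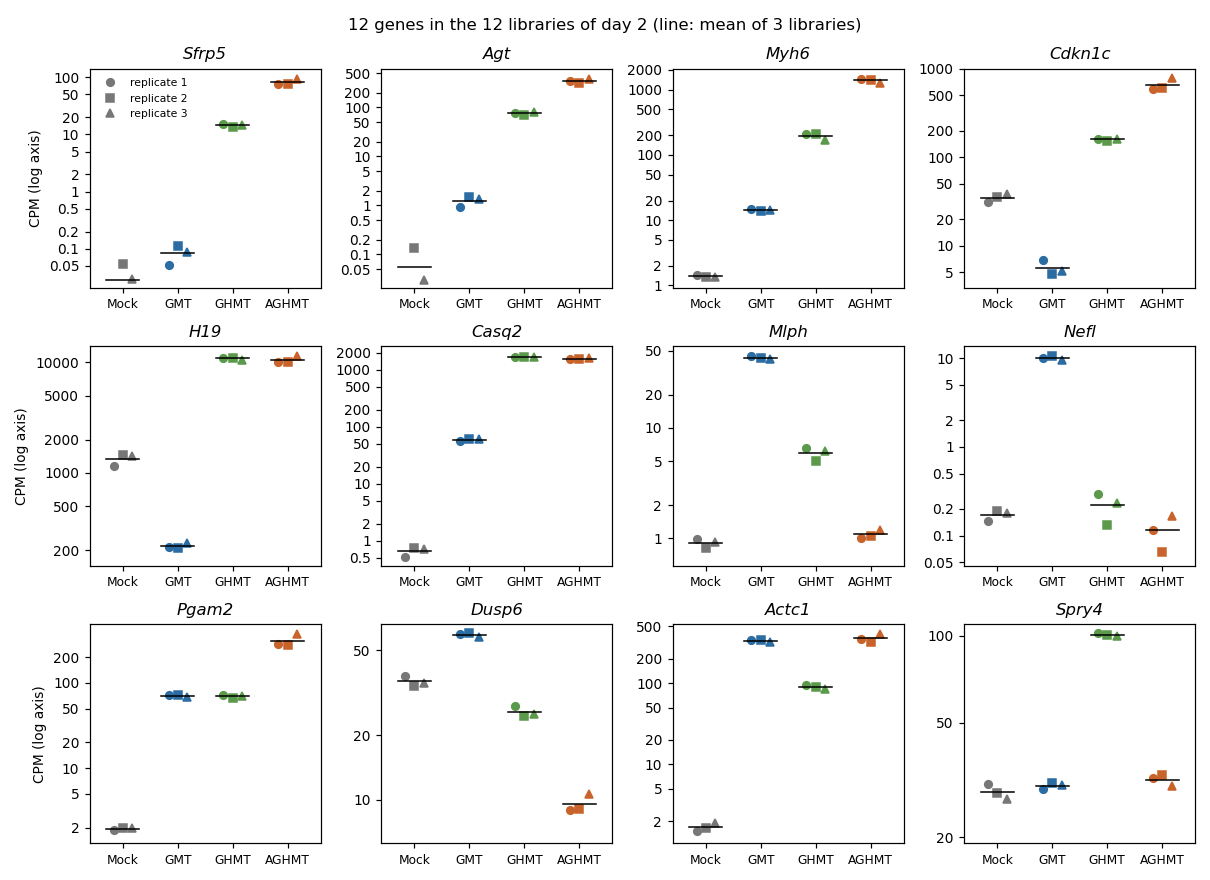
CPM (log axis) of 12 genes in each of the 12 libraries of day 2, grouped as Mock, GMT, GHMT and AGHMT, with a line at each group mean. Sfrp5, Agt, Myh6 and Cdkn1c step up from GMT to GHMT to AGHMT, H19 and Casq2 reach their AGHMT level already in GHMT, Pgam2 leaves its GMT level only in AGHMT, Mlph and Dusp6 step down, and Actc1 and Spry4 differ in GHMT alone; libraries at 0 (Mock replicate 1 of Sfrp5 and of Agt) are not drawn.

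Promoters are shown for a selection of these genes: Sfrp5, Agt and Camk1g, which rose in both steps, and Mlph, which fell in both. Among the highest genes, Hand2, Ccnb3 and Ms4a18 also had a window, which is not shown. The windows are RefSeq's, on GRCm38.p6, from 250 bases before to 50 after the gene start, and 6 of the 8 highest and 4 of the 8 lowest genes had one. Capitals mark CATCTG, an E-box variant bound by Hand proteins, AGATAA, the core bound by GATA factors, or GTAAACA, the motif of FoxO factors; each was searched on both strands, so that GTAAACA on the other strand reads TGTTTAC. Sfrp5 lies on the minus strand (chr19:42202203-42202502) with AGATAA at 2 places, Agt on the minus strand (chr8:124569657-124569956) with CATCTG at 1, Camk1g on the minus strand (chr1:193370233-193370532) with GTAAACA at 1, and Mlph on the plus strand (chr1:90914850-90915149) with none of these.
Sfrp5: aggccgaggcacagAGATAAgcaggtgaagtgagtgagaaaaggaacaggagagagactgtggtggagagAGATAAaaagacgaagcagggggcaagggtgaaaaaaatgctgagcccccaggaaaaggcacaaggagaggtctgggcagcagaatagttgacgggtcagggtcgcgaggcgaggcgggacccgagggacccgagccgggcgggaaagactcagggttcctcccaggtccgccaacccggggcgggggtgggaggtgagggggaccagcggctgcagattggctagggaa
Agt: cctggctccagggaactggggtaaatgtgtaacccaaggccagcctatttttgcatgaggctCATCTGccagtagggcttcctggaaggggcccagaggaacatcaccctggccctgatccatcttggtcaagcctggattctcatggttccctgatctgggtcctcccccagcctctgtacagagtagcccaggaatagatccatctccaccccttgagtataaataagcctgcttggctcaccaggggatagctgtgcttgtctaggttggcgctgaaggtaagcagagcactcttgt
Camk1g: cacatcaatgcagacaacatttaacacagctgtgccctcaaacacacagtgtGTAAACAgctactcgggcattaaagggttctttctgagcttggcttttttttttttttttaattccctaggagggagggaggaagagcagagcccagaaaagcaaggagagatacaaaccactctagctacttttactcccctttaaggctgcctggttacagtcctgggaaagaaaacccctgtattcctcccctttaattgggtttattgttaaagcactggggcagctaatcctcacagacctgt
Mlph: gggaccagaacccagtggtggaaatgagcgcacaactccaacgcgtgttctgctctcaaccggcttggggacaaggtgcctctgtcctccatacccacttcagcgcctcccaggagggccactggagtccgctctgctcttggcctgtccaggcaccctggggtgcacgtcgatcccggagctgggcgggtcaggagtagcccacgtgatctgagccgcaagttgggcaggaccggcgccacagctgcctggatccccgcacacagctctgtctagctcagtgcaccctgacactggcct
CATCTG was in 2 of the 6 windows of the highest genes and in 0 of the 6 of the lowest, against 17.2% of all 32851 windows. AGATAA was in 3 and in 0, against 11.2%, and GTAAACA in 1 and in 0, against 3.65%. The general E-box CANNTG, which CATCTG is one form of, was in all 6 windows of each end, against 72.3% of all windows. Of the 6 windows of the lowest genes, 3 belong to Lypd1. Of the 6 of the highest, 1 is that of Hand2, a cocktail gene whose counts do not separate viral from endogenous transcripts. With 6 windows an end these are descriptions of letters, not of binding.

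Of the heart genes, contractile and calcium-handling genes did not move as a block. Of 40 tested genes of the cardiac sarcomere and Z-disc, 21 were higher and 13 lower in AGHMT, where 31.6% and 31.5% of all genes tested were, with a median log2 fold change of 0.83 against -0.01 over all genes tested. Myh6 (chr14:54941921-54966927), the alpha heavy chain of cardiac myosin, had 15.0, 13.7 and 14.4 CPM in GMT, 209, 206 and 168 in GHMT, and 1480, 1396 and 1268 in AGHMT. It stepped up without overlap, by 6.59 ± 0.11 in all (adjusted p = 2.41e-24), by 3.76 with Hand2 and by a further 2.83 with Akt1, and the Hand2 step was the larger by 0.93 ± 0.15 (adjusted p = 1.42e-05). Reads of Myh6 may be shared in part with its near-identical neighbour Myh7. Tnni1, the slow skeletal troponin I that the embryonic heart also uses, went from 35.2 ± 0.362 CPM in GMT to 522 ± 27.7 in GHMT and 618 ± 99.4 in AGHMT, a net rise of 4.14 ± 0.09. Trim55, a ubiquitin ligase of the sarcomere, rose by 7.69 in the Hand2 step and fell by 0.73 in the Akt1 step. Myom2, which links myosin filaments at the M-band, had 395, 402 and 400 CPM in GMT, 253, 264 and 253 in GHMT, and 50.7, 47.1 and 48.9 in AGHMT. Its AGHMT libraries were the lowest of the 3 cocktails without overlap, and it fell by 3.03 on the log2 scale (adjusted p = 4.24e-25), mostly in the Akt1 step (-2.39 against -0.64).

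Calcium-handling and ion channel genes were mostly higher, with 32 of 40 higher and 5 lower in AGHMT (31.6% and 31.5% over all genes tested) and a median of 1.13. Casq2 (chr3:102086415-102146514), the calcium buffer of the cardiac sarcoplasmic reticulum, had 56.0, 61.0 and 61.1 CPM in GMT, 1706, 1678 and 1647 in GHMT, and 1568, 1528 and 1575 in AGHMT. It was at its high level in GHMT already: the Hand2 step was 4.82 ± 0.05 and the Akt1 step -0.11 ± 0.05, which missed the threshold (adjusted p = 0.0538) but passed it without AGHMT replicate 3 (adjusted p = 0.028) or GMT replicate 1 (0.0492). Trdn, triadin, which anchors calsequestrin to the release channel, moved in the other step. It was at 10.2 ± 0.724 CPM in GMT, 8.80 ± 0.107 in GHMT and 39.1 ± 1.55 in AGHMT, an Akt1 step of 2.15 ± 0.06 (adjusted p = 2.26e-19). Pln, phospholamban, an inhibitor of the calcium pump, rose by 2.89 and then 0.72, and Srl, sarcalumenin, a calcium-binding protein of the same compartment, by 1.27 and then 2.27. In Srl the Akt1 step was the larger (adjusted p = 1.71e-05). Kcnj3, a subunit of the atrial acetylcholine-gated potassium channel, stood at 4.11 ± 0.143 CPM in GMT, 4.61 ± 0.213 in GHMT and 25.5 ± 1.85 in AGHMT, so its called step was that of Akt1 (2.47 ± 0.10).

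Among 37 tested cardiac and mesodermal transcription factors outside the cocktail, 20 were higher and 8 lower, with a median of 0.19. For this and the atrial list, 31.6% of all genes tested were higher and 31.5% lower. Tbx20 stood at 11.6 ± 0.682 CPM in GMT, 83.4 ± 6.88 in GHMT and 113 ± 9.36 in AGHMT, mostly a Hand2 step (2.84 against 0.44, adjusted p for the difference 1.52e-14). Hey2 and Heyl, repressors that act downstream of Notch, rose in both steps, by 3.89 ± 0.10 and 4.86 ± 0.14 in all. Ppargc1a, the coactivator that drives mitochondrial genes, had 5.53, 4.57 and 4.42 CPM in GMT, 10.7, 11.5 and 9.46 in GHMT, and 70.7, 65.1 and 52.5 in AGHMT. Its Akt1 step of 2.57 exceeded its Hand2 step of 1.12 (adjusted p = 9.66e-07). The atrial and natriuretic list was divided, with 9 higher and 6 lower of 18. Pam, an enzyme that amidates peptides and is abundant in atrial granules, rose from 1003 ± 48.5 to 2472 ± 32.0 CPM, while Nppa, the atrial natriuretic peptide precursor, fell from 48.8 ± 4.56 to 13.4 ± 1.62 and Sln, sarcolipin, from 34.0 ± 1.90 to 9.66 ± 1.74.

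Of the 30 lists, oxidative phosphorylation had the largest share of members called in 1 direction. Its members are all nuclear genes. The 37 genes of the mitochondrial genome (named mt-) held 0 counts and could not be read. Of 48 tested subunits, 44 were higher in AGHMT than in GMT and 0 were lower, with a median of 0.49, against a background of 31.6% higher and 31.5% lower. The rise lay in the Akt1 step, in which 47 were higher and 0 lower (25.7% and 27% over all genes tested), with a median of 0.54 against -0.02 over all genes tested. In the Hand2 step 2 were higher and 9 lower (23.1% and 21.7% over all genes tested), with a median of -0.07; without both replicates 3 the 9 became 22, and with offsets for length and GC content 25. Without both replicates 3, of which the AGHMT library was rich in short transcripts, 42 members were higher and 0 lower in the net comparison and 47 and 0 in the Akt1 step, at medians of 0.37 and 0.46. Uqcrc2, a core subunit of complex III, had 130, 136 and 135 CPM in GMT, 133, 133 and 137 in GHMT, and 192, 182 and 180 in AGHMT. AGHMT was above both other groups in every library, with a net change of 0.46 ± 0.04 (adjusted p = 4.06e-11), an Akt1 step of the same size and a Hand2 step of 0.01 (adjusted p = 0.914). Cycs, cytochrome c, was the same in form, with 26.4, 23.8 and 23.4 CPM in GMT, 23.5, 23.7 and 26.2 in GHMT, and 43.7, 43.4 and 56.8 in AGHMT. Cox6a2 and Cox7a1, the striated-muscle forms of 2 subunits of cytochrome c oxidase, went from 0.635 ± 0.121 to 5.39 ± 0.770 CPM and from 1.86 ± 0.217 to 10.9 ± 1.88.

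Glycolysis genes were also mostly higher, 20 of 27, with 5 lower and a median of 0.71. For this and the next lists, 31.6% of all genes tested were higher and 31.5% lower. Pgam2, the muscle form of phosphoglycerate mutase, had 71.3, 71.1 and 68.1 CPM in GMT, 72.3, 66.8 and 70.0 in GHMT, and 287, 275 and 372 in AGHMT. GMT and GHMT overlapped and AGHMT stood above both, a net change of 2.15 ± 0.07 (adjusted p = 3.47e-18) with a larger Akt1 than Hand2 step (adjusted p = 1.33e-12). Pfkm, the muscle form of phosphofructokinase, stood at 60.5 ± 0.792, 64.9 ± 1.34 and 144 ± 5.91 CPM from GMT to AGHMT, an Akt1 step of 1.15. Slc16a3, a lactate exporter, moved otherwise: it rose by 3.20 in the Hand2 step and fell by 0.53 in the Akt1 step. Of 27 fatty acid oxidation genes 16 were higher and 4 lower, with a median of 0.26. Acsl1, which activates long-chain fatty acids, rose from 27.2 ± 0.783 to 91.0 ± 4.70 and 216 ± 12.7 CPM, whereas Fabp3, the heart-type fatty acid-binding protein, fell from 81.7 ± 1.86 to 30.8 ± 3.87. The sterol and fatty acid synthesis list had 9 higher and 13 lower of 33 and a median of 0.02, not far from the shares over all genes tested. In it Scd1, stearoyl-CoA desaturase, rose by 1.36 ± 0.06 and Sqle, squalene epoxidase, fell by 1.02 on the log2 scale.

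For the kinase pathways around Akt1 itself, the insulin, IGF and FoxO target list had 26 higher and 14 lower of 43, with a median of 0.46. Over all genes tested 31.6% were higher and 31.5% lower. Igf2 (chr7:142650766-142666816), the fetal growth factor, had 381, 388 and 393 CPM in GMT, 5206, 5314 and 4779 in GHMT, and 5061, 5088 and 4967 in AGHMT. AGHMT and GHMT overlapped far above GMT, so the Hand2 step of 3.72 ± 0.08 held the whole net change of 3.70 ± 0.07 (adjusted p = 9.84e-23), and the Akt1 step was -0.02 (adjusted p = 0.851). The Mock mean of Igf2 was 1209 CPM, above GMT and below GHMT and AGHMT. Igf2 overlaps its antisense gene Igf2os, and the counts may not separate them. Igfbp4, a binding protein that restrains IGF action, rose in both steps, from 22.4 ± 1.47 to 92.8 ± 3.17 and 288 ± 27.4 CPM. Pdk4, a FoxO-activated brake on pyruvate oxidation, fell in both, from 68.5 ± 1.02 to 24.6 ± 1.41 and 12.8 ± 0.471. Sesn1, a stress-induced inhibitor of mTORC1 that FoxO and p53 activate, had 43.1, 43.5 and 41.9 CPM in GMT, 56.3, 54.7 and 54.9 in GHMT, and 145, 141 and 154 in AGHMT. Every AGHMT library was above the rest, and it rose by 1.78 ± 0.05 (adjusted p = 4.74e-20), with the Akt1 step of 1.41 the larger (adjusted p = 4.54e-10). Sesn1 has 2 RefSeq windows, of which 1 is shown. The window shown (chr10:41810324-41810623, plus strand, GRCm38.p6) holds the FoxO motif on the other strand, in capitals. Binding was not tested.
Sesn1: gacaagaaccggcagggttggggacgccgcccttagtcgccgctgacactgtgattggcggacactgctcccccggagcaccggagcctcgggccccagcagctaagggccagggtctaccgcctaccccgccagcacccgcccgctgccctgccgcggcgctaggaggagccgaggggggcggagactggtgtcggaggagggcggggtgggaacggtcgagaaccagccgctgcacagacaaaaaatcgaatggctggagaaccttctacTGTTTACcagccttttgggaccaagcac
In the whole list, 5 of 48 windows (10.4%) of the 36 genes with a window hold GTAAACA, against 3.65% of all windows.

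Of 29 AKT and mTORC1 relatives 9 were higher and 13 lower, with a median of -0.08; the share higher is near the background of 31.6%, and 31.5% of all genes were lower. Sgk1, a kinase closely related to AKT, fell from 44.3 ± 1.33 to 22.3 ± 0.500 and 11.6 ± 0.472 CPM, and its relative Sgk3 rose from 10.8 ± 0.863 to 17.2 ± 0.490 and 27.8 ± 0.827. Pik3cd, a catalytic subunit of phosphoinositide 3-kinase, fell by 1.92 on the log2 scale, and Ddit4, a stress-induced inhibitor of mTORC1, rose in the Akt1 step by 1.07 ± 0.06. ATF4 targets, a readout of amino acid supply and of mTORC1, were mostly lower, 24 of 35, with 7 higher and a median of -0.36. Slc7a1, the transporter of cationic amino acids, fell by 1.61 and Slc7a5, the transporter of large neutral amino acids, rose by 1.09 ± 0.05.

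The EGF receptor and ERK response list had the lowest median of the signalling lists. Of 34 tested members 28 were lower and 3 higher in AGHMT (31.5% and 31.6% over all genes tested), with a median of -1.12. In the Hand2 step 20 were lower and 7 higher (21.7% and 23.1% over all genes tested). In the Akt1 step 25 were lower and 4 higher (27% and 25.7% over all genes tested). Dusp6 (chr10:99263231-99267489), the phosphatase that ERK induces against itself, had 59.7, 60.2 and 57.7 CPM in GMT, 27.5, 24.6 and 25.3 in GHMT, and 8.93, 9.04 and 10.7 in AGHMT. It stepped down without overlap, by 2.63 in all (-2.63 ± 0.06, adjusted p = 5.58e-22), in steps of -1.20 and -1.43 whose difference missed the threshold (adjusted p = 0.0607). Myc, a growth-promoting transcription factor, fell from 53.2 ± 0.798 to 25.7 ± 2.44 and 10.2 ± 0.760 CPM. Etv5, an ETS factor that ERK signalling induces, changed by -1.73 ± 0.05 and Dusp4, another phosphatase of ERK, by -2.01 ± 0.07, and in both the Akt1 step was the larger (adjusted p = 0.000324 and 3.22e-11). Spry4, a feedback inhibitor of the same pathway and a member of the list, did not follow them. It had 29.4, 30.8 and 30.5 CPM in GMT, a mean of 101 ± 1.32 in GHMT, and 32.2, 32.9 and 30.1 in AGHMT, so that only GHMT stood apart and the net change was 0.07 ± 0.05 (adjusted p = 0.188).

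The TGF-beta, BMP and YAP response list fell mainly in the Akt1 step. In the net comparison 20 of 30 were lower and 5 higher (median -0.41), in the Akt1 step 25 lower and 1 higher (median -0.62), and in the Hand2 step 9 lower and 16 higher (median 0.18). In the same order, the shares lower and higher over all genes tested were 31.5% and 31.6%, 27% and 25.7%, and 21.7% and 23.1%. Cyr61 (chr3:145646976-145649981), a matricellular target of YAP, had 416, 422 and 417 CPM in GMT, 413, 426 and 423 in GHMT, and 95.1, 92.0 and 109 in AGHMT. GMT and GHMT overlapped and AGHMT was far lower, with a net change of -2.08 ± 0.06 (adjusted p = 1.17e-19). Amotl2, another YAP target, did the same, at 184 ± 3.25, 189 ± 2.39 and 50.5 ± 1.18 CPM. Ctgf, connective tissue growth factor, fell in both steps, from 406 ± 0.394 to 229 ± 17.7 and 45.7 ± 6.74 CPM.

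Smooth muscle and SRF target genes went up with Hand2 and down with Akt1. Of 21 tested, 17 were higher and 3 lower in the Hand2 step (23.1% and 21.7% over all genes tested), with a median of 0.50. In the Akt1 step 2 were higher and 18 lower (25.7% and 27% over all genes tested), with a median of -0.93. What remained in AGHMT against GMT was 8 higher and 11 lower (31.6% and 31.5% over all genes tested), with a median of -0.20. The summed level of the list was 9194.2 to 9515.3 CPM in AGHMT, 16248.5 to 16903.2 in GHMT and 10667.6 to 10708.4 in GMT. In Mock it was 18144.6 to 19633.1, above every cocktail group, so the higher level in GHMT was not a rise over Mock. Myh11, smooth muscle myosin heavy chain, went from 26.1 ± 2.09 CPM in GMT to 178 ± 11.3 in GHMT and back to 82.1 ± 9.42 in AGHMT, a net rise of 1.65 ± 0.08. Filip1l rose by 0.31 and fell by 1.26, for a net change of -0.95 ± 0.06. Mylk, the light chain kinase, had 68.4, 70.5 and 72.2 CPM in GMT, 182, 198 and 175 in GHMT, and 173, 184 and 160 in AGHMT. Its Akt1 step of -0.11 missed the threshold (adjusted p = 0.118) but passed it without AGHMT replicate 2 (-0.15, adjusted p = 0.0338). Tagln2, transgelin 2, fell in both steps by 1.53 in all.

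**Figure D4:**
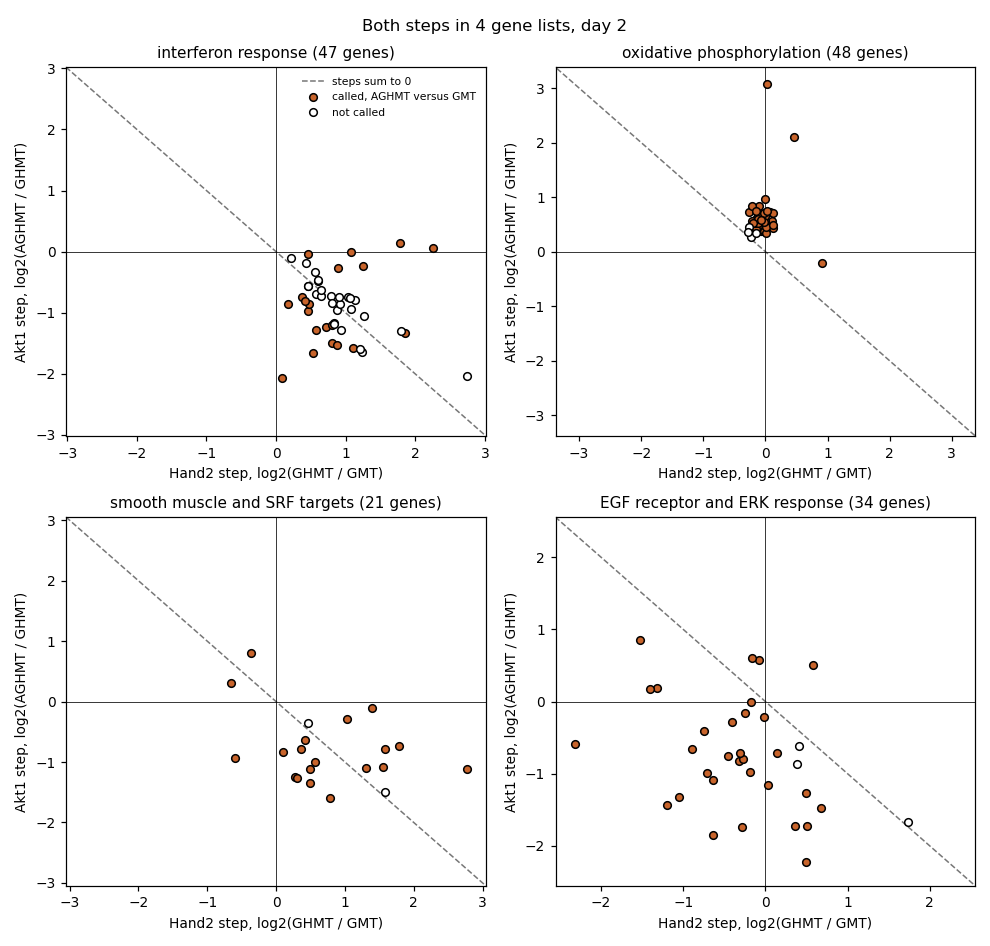
Log2 fold change of the Akt1 step against that of the Hand2 step for the tested members of the interferon (47), oxidative phosphorylation (48), smooth muscle (21) and EGF receptor and ERK (34) lists, 1 panel each and 1 point per gene, filled where the net change was called; on the dashed line the steps sum to 0. Most interferon genes lie along that line at positive Hand2 and negative Akt1 values, all but 1 of the oxidative phosphorylation genes lie above 0 on the Akt1 axis and most lie near 0 on the Hand2 axis, and most ERK response genes lie at negative values of the Akt1 step.

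Interferon response genes rose with Hand2 and fell back with Akt1. Of 47 tested, 44 were higher and 0 lower with Hand2 (23.1% and 21.7% over all genes tested), with a median of 0.80, and 0 were higher and 38 lower with Akt1 (25.7% and 27% over all genes tested), with a median of -0.84. In AGHMT against GMT 7 were higher and 13 lower, with a median of -0.04, both counts under the background of 31.6% and 31.5%. The 7 became 14 with no filter on low counts, and the 13 became 8 without AGHMT replicate 1. The list had 24 genes with opposed steps and no net call. Its summed level was 5408.7 to 6768.4 CPM in AGHMT, 9109.9 to 10735.3 in GHMT, 5502 to 6159 in GMT and 5902.2 to 8061.4 in Mock, so that GHMT alone lay above the rest. Cxcl10, an interferon-induced chemokine, had 27.8, 24.6 and 16.9 CPM in GMT, 136, 85.6 and 113 in GHMT, and 24.3, 34.8 and 29.9 in AGHMT. AGHMT and GMT overlapped (net 0.35 ± 0.24, adjusted p = 0.202, or 9.69e-07 with no filter on low counts), and Mock, at 116, 209 and 105, was as high as GHMT. Among members with a net call, Iigp1, an interferon-induced GTPase, kept its Hand2 step and stood at 416 ± 31.1 against 110 ± 12.3 CPM, and Oas3, a sensor of double-stranded RNA, fell in the Akt1 step, from 57.1 ± 3.83 CPM in GHMT to 13.7 ± 1.54, with the steps differing (adjusted p = 3.27e-07).

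Chemokines, cytokines and inflammatory genes were more often higher than lower with Hand2 (16 and 9 of 35) and more often lower with Akt1 (2 and 19), with 9 higher and 16 lower in all and a net median of -0.34. Over all genes tested 23.1% were higher and 21.7% lower with Hand2, 25.7% and 27% with Akt1, and 31.6% and 31.5% in all. Cxcl12, which guides progenitor cells, rose in both steps, from 42.1 ± 2.26 to 281 ± 15.1 and 459 ± 12.5 CPM. Il6 rose by 3.90 and then fell by 0.96, and stood at 3.24 ± 0.426 CPM in AGHMT against 0.425 ± 0.283 in GMT. Nfkbiz, an atypical inhibitor protein of NF-kappaB, fell in both steps by 1.79 in all.

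Of the 1069 genes with opposed steps and no net call, 605 had GHMT as the highest group and 464 as the lowest. At 1.5-fold or more in both steps there were 296, 174 with GHMT highest and 122 with it lowest. Actc1 (chr2:114047282-114053548), the cardiac alpha-actin of the sarcomere, was one of them: it had 336, 339 and 320 CPM in GMT, 95.4, 89.7 and 85.0 in GHMT, and 349, 317 and 399 in AGHMT. GHMT alone was low, with steps of -1.88 and 1.98, and the net change was 0.10 ± 0.07 (adjusted p = 0.206), though without AGHMT replicate 2 it was 0.17 (adjusted p = 0.025). With GHMT high stood Msln, mesothelin, at 8.67 ± 0.502, 31.2 ± 1.24 and 8.30 ± 0.971 CPM from GMT to AGHMT, and Tmem204, at 1.56 ± 0.148, 8.69 ± 0.468 and 1.51 ± 0.407. With GHMT low stood Vtn, vitronectin, at 5.15 ± 0.867, 1.67 ± 0.377 and 4.77 ± 0.740. Opposed steps that left a net change were seen in Fxyd6, a regulator of the sodium pump, which rose by 6.80 with Hand2 and fell by 0.90 with Akt1, and in Scg2, a secretory granule protein, which went from 629 ± 12.8 CPM in GMT to 27.0 ± 0.779 in GHMT and 44.2 ± 5.96 in AGHMT.

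Other genes were called in 1 step and not in the other. H19 (chr7:142575529-142578143), an imprinted noncoding RNA beside Igf2, had 215, 209 and 235 CPM in GMT, 10877, 10999 and 10565 in GHMT, and 9948, 9960 and 11344 in AGHMT. GHMT and AGHMT overlapped far above GMT, with a Hand2 step of 5.62 ± 0.11 and an Akt1 step of -0.05 (adjusted p = 0.639). The Mock mean of H19 was 1350 CPM, above GMT and below GHMT and AGHMT. Tspan18, a tetraspanin, went from 2.64 ± 0.517 to 128 ± 10.7 and 136 ± 20.9 CPM (Akt1 step 0.08, adjusted p = 0.503, or 0.20 and 0.0282 without AGHMT replicate 3), and Syt1, a calcium sensor of vesicle release, from 11.9 ± 1.18 to 0.575 ± 0.148 and 0.538 ± 0.267. On the side of Akt1, Th, tyrosine hydroxylase, was at 0.0913 ± 0.0566 CPM in GMT, 0.243 ± 0.137 in GHMT and 5.59 ± 0.726 in AGHMT. Its Akt1 step was 4.51 ± 0.27 and its Hand2 step 1.36 ± 0.63 (adjusted p = 0.0874, but 0.0434 with DESeq2 and 0.0418 with no filter on low counts). Ntsr2, a neurotensin receptor, was at 0.183 ± 0.0438, 0.0994 ± 0.0328 and 6.23 ± 1.21 CPM. Igsf1, a membrane glycoprotein, rose in the Akt1 step by 3.65 ± 0.15. Lower in the Akt1 step were Fgd3, an exchange factor of the Cdc42 GTPase, at 29.8 ± 0.528, 31.3 ± 1.46 and 7.40 ± 0.304 CPM, and Peak1os, an antisense transcript whose reads cannot be told from those of its partner without strand. The Hand2 step of Peak1os was -0.09 (adjusted p = 0.339), and was called with offsets for length and GC content (-0.15, adjusted p = 0.0398). The steps differed for all of these genes, with adjusted p for the difference from 1.33e-19 for H19 to 0.0112 for Th.

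Cell cycle genes went both ways. Of 36 S phase genes 7 were higher and 15 lower (median -0.10), and of 31 G2 and M phase genes 6 were higher and 5 lower (median -0.04), both near or under the background of 31.6% and 31.5% except for the 15 lower. Without AGHMT replicate 3 the 6 became 3. Tpx2, a spindle assembly factor, rose in the Akt1 step from 38.5 ± 1.11 to 69.5 ± 0.704 CPM, and Kif23, a kinesin of cytokinesis, fell from 31.2 ± 1.41 to 20.4 ± 1.35. Of the S phase genes, Pold1, the catalytic subunit of DNA polymerase delta, fell by 0.48 and Prim2, a primase subunit, rose by 0.43 ± 0.06. Among 29 p53 targets and inhibitors of cyclin-dependent kinases, 14 were higher and 9 lower. Cdkn1c (chr7:143458339-143461050), the imprinted inhibitor p57, had 6.98, 4.82 and 5.22 CPM in GMT, 162, 154 and 162 in GHMT, and 592, 613 and 778 in AGHMT. It stepped up without overlap, by 6.86 ± 0.12 (adjusted p = 5.24e-24), with a Hand2 step larger than the Akt1 step (4.80 against 2.05, adjusted p = 5.64e-13). Its Mock mean was 34.7 CPM, above GMT and below GHMT and AGHMT. Cdkn2b, the inhibitor p15, fell from 56.0 ± 2.00 to 19.1 ± 2.56 CPM.

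Fibroblast and matrix genes went both ways, 23 higher and 19 lower of 45 with a median of 0.18. For this and the next lists, 31.6% of all genes tested were higher and 31.5% lower. Col6a1 and Col6a2, collagen VI chains, rose from 176 ± 7.80 to 608 ± 24.0 and from 140 ± 6.95 to 488 ± 33.3 CPM, in both steps, and stayed under Mock (1673 ± 35.5 and 1198 ± 28.5). Fbln1, fibulin 1, rose in both steps and Fbln5, an elastic fibre protein, fell in both, from 340 ± 9.47 to 222 ± 1.43 and 134 ± 4.38. Of 34 Hox, limb and positional genes 17 were higher and 4 lower. Hoxa10 rose in the Hand2 step, from 15.3 ± 0.747 to 23.9 ± 0.919 CPM, and Grem1, a BMP antagonist of the limb, fell in the Akt1 step, from 222 ± 5.03 to 64.4 ± 3.46. The Notch list had 8 higher and 6 lower of 17, with Jag1, a ligand, at 47.5 ± 0.365, 97.4 ± 2.57 and 131 ± 5.16 CPM from GMT to AGHMT. The Wnt list had 17 higher and 13 lower of 39. In it Axin2, a target and inhibitor of the pathway, fell from 13.1 ± 0.496 to 1.52 ± 0.225 CPM, and Wnt11, a ligand, rose from 1.86, 1.75 and 1.81 CPM to 13.2, 14.8 and 15.9.

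**Figure D5:**
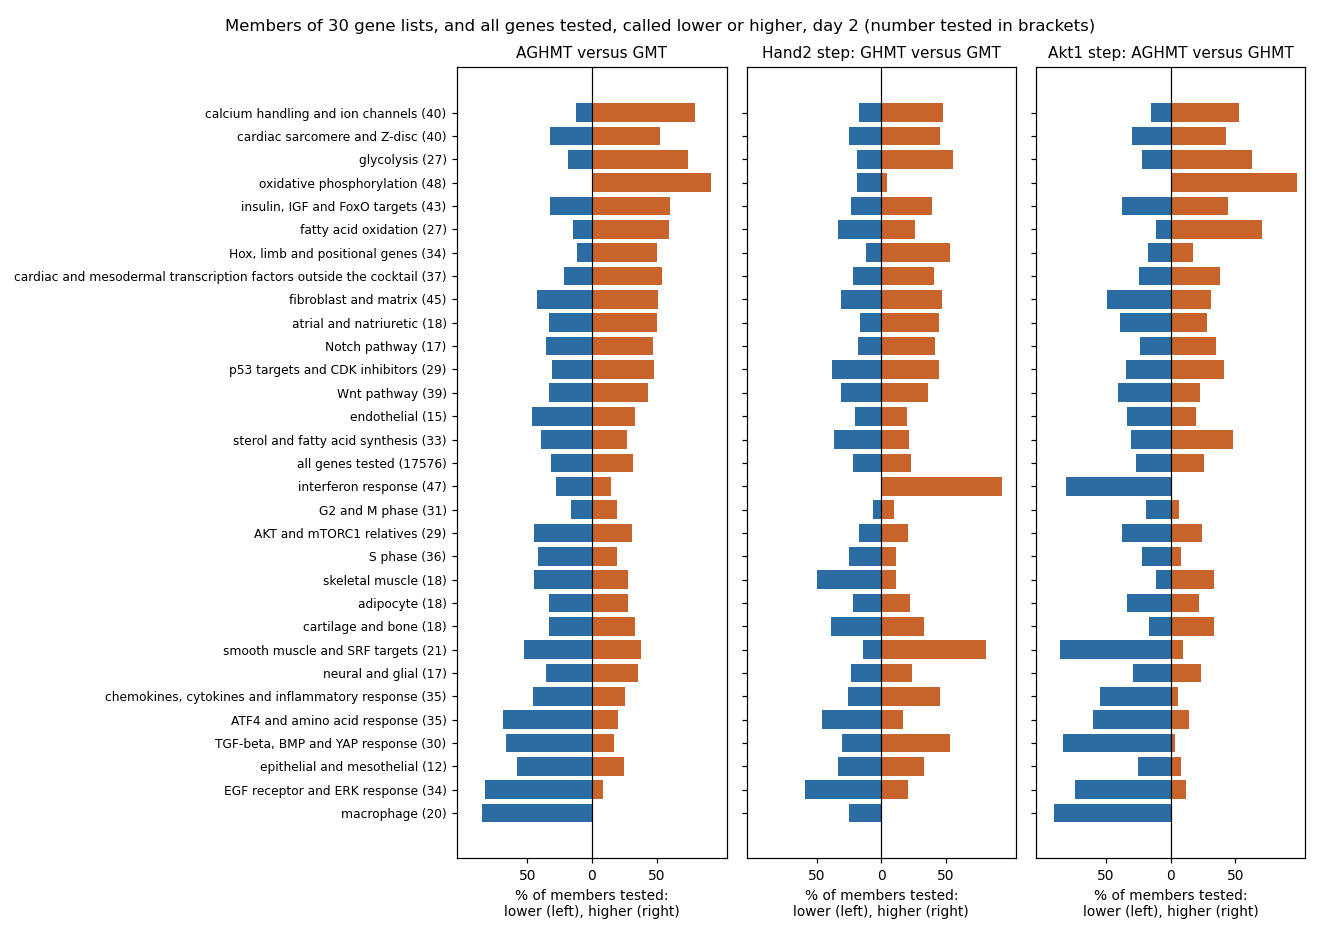
Percent of tested members called lower (to the left) and higher (to the right) for 30 gene lists and for all genes tested, in AGHMT against GMT and in each step. Oxidative phosphorylation stands out to the right in the net comparison and the Akt1 step, interferon response to the right in the Hand2 step and to the left in the Akt1 step, and macrophage markers to the left.

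Markers of other cell types that such cultures could hold were read against the 31.6% of all genes tested that were higher in AGHMT and the 31.5% that were lower. Of 20 macrophage markers 17 were lower and 0 higher in AGHMT, with a median of -1.53, and their summed level was 21.3 to 26.2 CPM in AGHMT, 50.6 to 59.3 in GHMT, 58.8 to 76.9 in GMT and 79.9 to 82.7 in Mock. No tested marker of the list had a mean of 0 in any group; Ptprc, which marks all leukocytes, stood at 0.253 CPM in AGHMT and 1.08 in GMT, and Csf1r, the receptor of macrophage growth, at 3.44 ± 0.275 and 13.4 ± 0.953. Macrophage markers fell beside the interferon and inflammatory genes in the Akt1 step (18 of 20 lower, against 27% of all genes tested). In the Hand2 step, in which interferon genes rose, 5 of these markers were lower and 0 higher (21.7% and 23.1% over all genes tested). The part of macrophage markers in those results was not tested. Endothelial markers (5 higher and 7 lower of 15) had a median of 0.03; their sum was 289.4 to 302.1 CPM in GMT and 104.6 to 127.1 in AGHMT, most of it Flt1, a VEGF receptor, at 222 ± 5.77 and 60.4 ± 7.83. Epithelial and mesothelial markers (3 higher and 7 lower of 12) summed to 106.2 to 110.6 CPM in GMT and 46.3 to 56.1 in AGHMT, with Krt19, a keratin, at 46.2 ± 0.861 and 3.50 ± 0.967. Skeletal muscle markers had 5 higher and 8 lower of 18, and the 8 became 5 without GMT replicate 1. They summed to 51.7 to 53.7 CPM in GMT and 125.4 to 153.2 in AGHMT, where Myl1, a fast light chain that the embryonic heart also expresses, was at 77.3 ± 11.8 against 6.66 ± 0.226. Tnnt3, fast troponin T, rose from 0.922 ± 0.0915 to 23.4 ± 3.49 CPM, while Myh1, a fast myosin heavy chain, fell from 8.19 ± 0.610 to 0.676 ± 0.115. Cartilage and bone markers had 6 higher and 6 lower of 18, neural and glial markers 6 and 6 of 17, and adipocyte markers 5 and 6 of 18, all near the background.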

How the data were processed

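Total RNA from mouse embryonic fibroblasts was sequenced and reads were counted per gene. Per the submitters' processing notes, reads were handled with Trim Galore (version 0.4.1), HISAT2 (version 2.0.1), featureCounts (version 1.4.6) and DESeq2 (version 1.6.3) on GRCm38. Which annotation release and strand setting were used is not given in the sources used here. The deposited values are raw counts per gene.

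Groups were taken from the labels, which give no batch. edgeR 4.0.16 (R 4.3.3, limma 3.58.1) was run with TMM factors and filterByExpr on all 24 libraries, with 1 mean for each of the 8 groups and 16 residual degrees of freedom; quasi-likelihood F tests were two-sided and Benjamini-Hochberg adjusted over all 17576 genes, with a threshold of 0.05. Tested genes held at least 99.9% of each library's counts, and 13946 genes had no count. The contrasts were AGHMT minus GMT, GHMT minus GMT, AGHMT minus GHMT and the difference of these steps. Levels are TMM-scaled CPM, as mean ± SD of 3 libraries. The fit was run on simulated data in which only a small part of the genes changed. That run cannot test the scaling where most genes differ, as they do here. Coordinates are GENCODE's on GRCm38 and matched 99.7% of tested genes.

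Named genes are the cocktail genes, the 8 highest and 8 lowest called genes (at least 5 CPM in the higher group, no overlap), up to 4 members of each list by smallest adjusted p, the 3 highest and 3 lowest of each step class, and 8 genes with cancelling steps. Col1a1, Ptprc and genes neighbouring H19 were named outside this rule. The members and the 30 lists (917 genes, 6 matched by an older symbol) were chosen with earlier results of these data known. Same-numbered AGHMT and GHMT libraries deviated together (r = 0.50, 0.40 and 0.78 for replicates 1 to 3), a pairing seen in the data and not stated in the labels. GMT libraries deviated with neither (r from -0.12 to 0.04). The labels do not say which groups were prepared together, so preparation and cocktail cannot be told apart. Alternatives were DESeq2 1.42.0, other size factors, no filter, fewer libraries, a replicate block and each replicate left out; leaving out both replicates 3 and offsets for length and GC content were added after seeing the data.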

Additional observations from a re-analysis of the deposited data

How the results depend on the processing

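All 391 recomputed values of the gene-level counts stayed within 1.5 times the reported count, and no named call reversed sign. The 11081 genes called between AGHMT and GMT became 10630 with DESeq2, 9360 with only the compared libraries, 10392 to 11119 without 1 replicate and 11662 (5433 higher and 6229 lower) with offsets for length and GC content. Those offsets moved the Hand2 step from 4055 higher and 3817 lower to 3727 and 5177, and the median of all genes in the net comparison was -0.05 with them and -0.01 without. With the replicate block 11181, 8002 and 9402 genes were called in the net comparison, the Hand2 step and the Akt1 step; same-numbered AGHMT and GMT libraries did not deviate together (r from -0.12 to -0.03), and the block changed 6 of 450 named calls. In the lists, G2 and M phase genes higher in AGHMT went from 6 to 3 without AGHMT replicate 3 and to 3 without both replicates 3, and those lower went from 5 to 8 with offsets. Interferon genes higher went from 7 to 14 with no filter on low counts, and those lower from 13 to 8 without AGHMT replicate 1. Skeletal muscle genes lower went from 8 to 5 without GMT replicate 1. The cause was not tested. Requiring 1.5-fold in both steps left 296 of the 1069 cancelling genes.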

Other observations

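H19, Igf2, Cdkn1c, Th and Tnnt3 lie on 1 stretch of chromosome 7 (chr7:142498836-143461050, GRCm38) that was chosen after their values were seen. It holds 15 tested genes, of which 8 were higher and 3 lower in AGHMT than in GMT (edgeR quasi-likelihood test), where 31.6% and 31.5% of all genes tested were. The 8 include H19, Igf2, Cdkn1c, Th and Tnnt3, for which the stretch was chosen, so the count cannot be compared with that share. The rest of the 8 were Igf2os, Kcnq1 and Kcnq1ot1. Of the neighbours between them, Igf2os, the antisense gene that overlaps Igf2, rose by 3.36, with a Hand2 step of 3.08. The other neighbours changed less. Mrpl23, a mitochondrial ribosomal gene next to H19, had a net log2 fold change of 0.17 (adjusted p = 0.103), and Tssc4 one of 0.06 (adjusted p = 0.573). Kcnq1, a cardiac potassium channel subunit, rose by 1.54 and the noncoding RNA Kcnq1ot1, which overlaps it on the other strand, by 0.75, while Cd81, a tetraspanin, fell by 0.14 and Ascl2, an imprinted transcription factor, by 1.05. Kcnq1 and Ascl2 were close to silent: Kcnq1 stood at 0.483 CPM in AGHMT and 0.168 in GMT, and Ascl2 at 0.177 and 0.374. The step also differed within the stretch: H19 and Igf2 had Hand2 steps of 5.62 and 3.72 and Akt1 steps of -0.05 and -0.02, whereas Th had an Akt1 step of 4.51 and Cdkn1c rose in both. Whether the alleles took part cannot be read from these counts.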
